A study of Mus musculus with 10 samples.

Results

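The comparison is between mouse T helper 2 (Th2) cultures treated with trichostatin A (TSA) and Th2 cultures left untreated, with 2 RNA-seq libraries on each side, 4 of the 10 libraries in the series. The TSA-treated cultures were C57BL/6 splenic CD4 T cells grown for 5 days with interleukin-2 at 15 ng/ml and interleukin-4 at 10 ng/ml, with 10 nM TSA added on day 2 and cells collected after 3 more days. The untreated cultures were C57BL/6 splenic CD4 T cells grown under the same conditions for 5 days without TSA, and the labels name no vehicle. The other libraries are from embryonic stem (ES) cells, splenic B cells and splenic CD4 T cells. Libraries were chosen by their labels alone, and their titles give each a number, exp1 or exp2. Nothing in the labels tells if the 2 libraries of a group had separate animals or cultures behind them. The p-values below therefore stand for the spread between libraries only, which may be technical.

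Histone deacetylases remove acetyl groups from histone tails, and loss of this acetylation generally goes with silent chromatin. TSA blocks the zinc-dependent deacetylases and leaves the sirtuins, which use another chemistry. Th2 cells are the helper T cells of allergy and worm immunity; interleukin-4 acts through STAT6 to raise GATA3, which drives the cytokines IL-4, IL-5 and IL-13. The opposed Th1 programme runs on T-bet and interferon-gamma.

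Values are FPKM as deposited, fragments scaled to transcript length and to the depth of the library. Of 19025 genes, 4436 were at 0 in all 4 libraries and 14589 were above 0 in at least 1. The 10225 genes with 1 FPKM or more in at least 2 of the 4 libraries were tested with limma on log2(FPKM + 1). Log2 fold changes are TSA-treated minus untreated on that scale, given with their standard error (SE), and they understate the change of low genes. A call is a Benjamini-Hochberg adjusted p below 0.05, two-sided. Counts given without a library come from fits with a lone library in a group and are descriptions. Where library values are listed, exp1 comes before exp2. Between 10136 and 10302 genes reached 1 FPKM in the TSA-treated libraries, and between 9652 and 9746 in the untreated ones. Steps in the low values of genes about 1 kb long put the depth at about 15000000 and 27000000 fragments in the TSA-treated libraries and 19800000 and 25300000 in the untreated ones, an estimate and not a count. Bulk RNA cannot tell fewer cells of a kind from less RNA per cell.

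The cultures carried the markers of CD4 T cells. The 5 T cell genes Cd3d, Cd3e, Cd3g, Cd247 and Cd28 summed to 895 and 899 FPKM in the TSA-treated libraries, against 797 and 815 in the untreated ones. Cd4 stood at 184 and 162 FPKM in TSA-treated cultures, against 135 and 131 in untreated ones, which was no call (adjusted p = 0.0848). Gata3, Il4, Il10, Ccr4 and Ccr8 were above 19 FPKM in every library. Il1rl1, the receptor for IL-33 found on memory Th2 cells, was at 0.14 FPKM in both TSA-treated libraries, against 0.61 and 0.74 in the untreated ones. The Th17 genes Il17a and Il17f summed to no more than 1.06 FPKM in any library, and the natural killer gene Ncr1 was at 0 throughout.

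TSA-treated cultures differed from untreated ones in many of the tested genes. Of 10225 genes, 1718 (16.8%) were higher and 1110 (10.9%) lower in TSA-treated cultures, 27.7% in all. Changes of at least 1 on the log2 scale were found in 773 of the higher and 246 of the lower genes. Changes of at least 2 on the log2 scale were found in 141 and 19 of them. Without TSA-treated replicate 2 the calls came to 1206 higher and 598 lower. The median log2 fold change of all tested genes was 0.01. The SD of the log2 ratio over genes was 0.614 within exp1 and 0.704 within exp2, against 0.315 between the TSA-treated libraries and 0.30 between the untreated ones. Of the higher genes, 402 were under 1 FPKM in both untreated libraries, and of the lower genes 54 were under 1 FPKM in both TSA-treated ones. Such genes passed the filter on low values only through the group where they were high, so they had to differ and their number is a description.

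**Figure D1:**
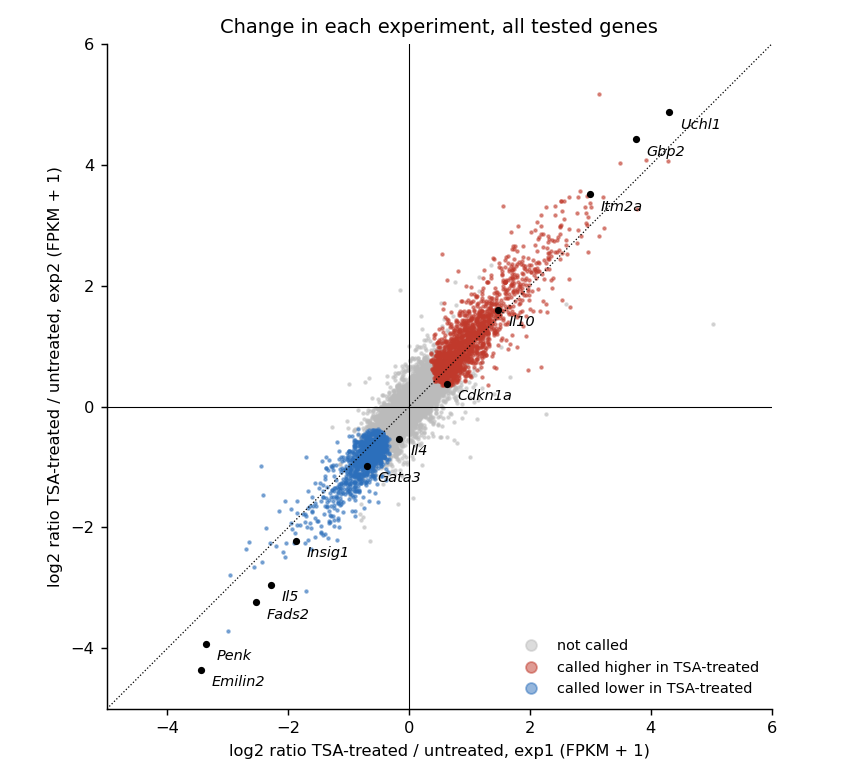
Log2 ratio of TSA-treated to untreated FPKM + 1 within exp1 (x axis) and within exp2 (y axis) for the 10225 tested genes. The dotted line marks equal change. A ribosomal protein gene with no call lies beyond the range of the x axis and is not drawn. Called genes lie along the diagonal in both directions, from Emilin2 at -3.44 and -4.36 to Uchl1 at 4.3 and 4.87.

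The largest increase was in Uchl1, a ubiquitin hydrolase abundant in neurons. Uchl1 measured 42.9 and 74.8 FPKM in TSA-treated cultures, against 1.23 and 1.60 in untreated ones (log2 fold change 4.58, SE 0.27, adjusted p = 0.00124). Gstt1, a glutathione transferase, was at 27.9 and 32.3 FPKM in TSA-treated cultures, against 0.49 and 0.98 in untreated ones (4.18, SE 0.19). In both genes the groups were far apart and the lowest treated value was at least an order of magnitude above the highest untreated one. Fxyd7, a brain regulator of the sodium pump, was at 8.82 and 43.9 FPKM in TSA-treated cultures, against 0.11 and 0.24 in untreated ones, with a wide gap between its TSA-treated libraries. Mt3, the metallothionein first known from brain, reached 98.7 and 162 FPKM with TSA, against 5.60 and 8.68 without it (4.0, SE 0.29). Itm2a, a membrane protein gene of activated T cells and muscle, reached 476 and 738 FPKM with TSA, against 59.1 and 64.0 without it (3.25, SE 0.22). The rest of the 15 largest increases were Gbp2, Bex1, Klrk1, Mnda, Syp, H2-Aa, Rundc3a, Bex2, Ybx2 and Themis2. Gstt1, Fxyd7, Bex1, Klrk1, Syp, Rundc3a and Themis2 were under 1 FPKM in both untreated libraries, so they had to differ to be tested.

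Several of these genes were near 0 in the splenic T cells that such cultures start from. Uchl1, Gstt1, Mt3, Bex1 and Bex2 averaged 0.145, 0.20, 0.08, 0.095 and 0.185 FPKM in the CD4 T libraries, whose tables hold a value per transcript where the Th2 tables repeat 1 per symbol, so no fold is given. Bex1 averaged 194 FPKM and Uchl1 67.6 FPKM in ES cells. Themis2 and Klrk1 were different, with 35.9 and 5.78 FPKM in CD4 T cells. Bex1, Bex2, Itm2a and Syp lie on chromosome X, where 67 of 324 tested genes (20.7%) were higher in TSA-treated cultures; on single autosomes the share ran from 11.1% to 20.2%. Bex1 and Bex2 are close copies, and reads may have been shared between them.

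The largest decrease was in Emilin2, an elastin-fibre glycoprotein, which measured 3.68 and 2.60 FPKM in TSA-treated cultures, against 49.7 and 72.9 in untreated ones (-3.90, SE 0.23, adjusted p = 0.00124). Penk, the precursor of the enkephalin opioid peptides, measured 6.15 and 4.93 FPKM with TSA, against 72.2 and 89.5 without it (-3.64, SE 0.17). Neither gene's groups overlapped. Rnf128, the ubiquitin ligase GRAIL of T cell anergy, was at 2.52 and 4.37 FPKM in TSA-treated cultures, against 26.4 and 35.8 in untreated ones (-2.87, SE 0.25). Trat1, an adaptor that stabilises the T cell receptor complex, was at 18.1 and 10.8 FPKM in TSA-treated cultures, against 111 and 73.5 in untreated ones (-2.60, SE 0.29). Dok2, which restrains receptor signalling, was at 29.0 and 26.8 FPKM with TSA, against 126 and 146 without it (-2.24, SE 0.14). The rest of the 15 were Sval1, Fads2, Il5, Slfn2, Il1r2, Gp49a, Serpinf1, Emr1, Mcf2l and Sln; Serpinf1 lost its call with no filter (adjusted p = 0.0507). Gp49a and Slfn2 have close copies in the genome. Sval1 and Emr1 were under 1 FPKM in both TSA-treated libraries, so they had to differ to be tested.

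**Figure D2:**
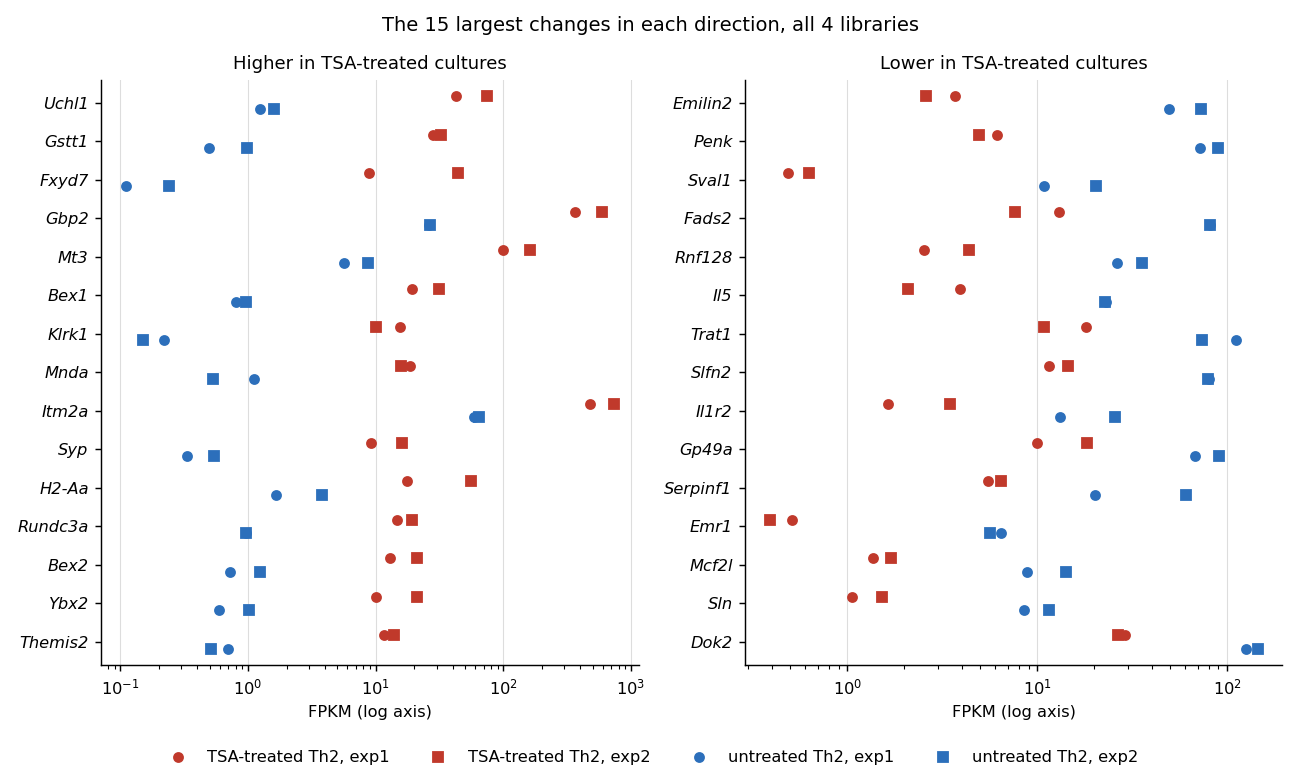
FPKM (log axis) of the 15 genes with the largest increase and the 15 with the largest decrease, 1 point per library, TSA-treated above untreated in each row. The groups do not overlap in any of the 30 genes, which the naming rule required. Genes under 1 FPKM in both libraries of a group, Gstt1 and Sval1 among them, also had to differ to be tested. Fxyd7 shows the widest gap between TSA-treated libraries, 8.82 and 43.9 FPKM.

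Th2 genes did not move as a block. Of 19 tested genes of the Th2 list 3 were higher and 5 lower in TSA-treated cultures (15.8% and 26.3%, beside 16.8% and 10.9% of all tested genes), with a median log2 fold change of -0.34. Without untreated replicate 1 these counts were 5 and 8, and without TSA-treated replicate 1 or untreated replicate 2 they were 5 and 5. Il5, the eosinophil growth factor, was at 3.92 and 2.08 FPKM in TSA-treated cultures, against 23.1 and 22.8 in untreated ones (-2.62, SE 0.23, adjusted p = 0.00217). Ccr4, a chemokine receptor of Th2 and skin-homing cells, was at 28.3 and 19.5 FPKM with TSA, against 95.2 and 75.8 without it (-1.81, SE 0.21). Gata3 was at 49.0 and 49.2 FPKM with TSA, against 80.3 and 98.1 without it (-0.84, SE 0.15, adjusted p = 0.0113). Stat6, the signal carrier of IL-4, was at 24.7 and 22.5 FPKM with TSA, against 39.3 and 48.2 without it (-0.86, SE 0.15). All 4 of these genes had TSA-treated libraries below both untreated ones.

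The other Th2 cytokine genes gave no call in that direction. Il4 was at 67.3 and 66.3 FPKM in TSA-treated cultures, against 75.4 and 96.0 in untreated ones (-0.34, SE 0.16, adjusted p = 0.148). Il13 was at 8.75 and 25.3 FPKM with TSA, against 22.5 and 32.1 without it, and its groups overlapped (adjusted p = 0.227). The chemokine receptor gene Ccr8 also overlapped, with 58.7 and 54.1 FPKM with TSA, against 66.5 and 56.0 without it. Il10, the gene of the anti-inflammatory cytokine, was higher: 316 and 486 FPKM in TSA-treated cultures, against 114 and 159 in untreated ones (1.54, SE 0.26, adjusted p = 0.01). Ecm1, a secreted protein that Th2 cells use to leave lymph nodes in mice, reached 2262 and 4797 FPKM with TSA, against 605 and 1341 without it (1.87, SE 0.47, adjusted p = 0.0331). Its call was lost without TSA-treated replicate 2 (1.33, adjusted p = 0.0624) and with no filter (adjusted p = 0.0919).

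Of 19 tested Th1 genes 11 (57.9%) were higher and 0 lower, beside 16.8% and 10.9% of all tested genes, with a median of 1.23; 2 of the 19 were under 1 FPKM in both untreated libraries. Tbx21, the gene of T-bet, was at 22.4 and 23.4 FPKM in TSA-treated cultures, against 7.80 and 7.07 in untreated ones (1.5, SE 0.14, adjusted p = 0.00217). Il12rb2, the inducible chain of the IL-12 receptor, was at 81.9 and 63.0 FPKM with TSA, against 18.5 and 12.1 without it (2.19, SE 0.23). Lta, the gene of lymphotoxin alpha, was at 152 and 305 FPKM with TSA, against 44.1 and 47.8 without it (2.20, SE 0.31). None of these groups overlapped. Ifng itself stayed low, at 2.87 and 2.98 FPKM in TSA-treated cultures, against 1.51 and 0.46 in untreated ones (1.04, SE 0.26, adjusted p = 0.0332), a call lost after quantile normalization (0.62, adjusted p = 0.122) and with no filter on low values (adjusted p = 0.0773). The chemokine genes Ccl3 and Ccl4 were called higher from levels under 1 FPKM in both untreated libraries (Ccl3 lost its call with no filter, adjusted p = 0.056), and Cxcr3, the Th1 chemokine receptor gene, gave no call (0.44, adjusted p = 0.153).

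Among regulatory T genes 4 of 12 tested members (33.3%) were higher and 3 (25%) lower, beside 16.8% and 10.9% of all tested genes (5 lower without untreated replicate 1). Of the 12, 2 were under 1 FPKM in both untreated libraries, Nrp1 among them, and had to differ to be tested. Nrp1, a semaphorin co-receptor, was at 11.7 and 7.46 FPKM in TSA-treated cultures, against 0.43 and 0.20 in untreated ones (2.98, SE 0.23). Lrrc32, which presents latent TGF-beta, was called lower, and the master factor gene Foxp3 measured 0.62 and 1.16 FPKM with TSA, against 0.56 and 1.12 without it. Il21, a follicular helper cytokine gene, was at 3.62 and 6.78 FPKM with TSA, against 0.23 and 0.55 without it. Il21 also passed the filter on low values only through the TSA-treated libraries.

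Interferon-inducible GTPases attack intracellular pathogens. Of 19 tested guanylate-binding and immunity-related GTPase genes 17 (89.5%) were higher and 0 lower in TSA-treated cultures, beside 16.8% of all tested genes, and 1 of the 19 was under 1 FPKM in both untreated libraries. The median log2 fold change was 1.29. Gbp2 was at 367 and 593 FPKM in TSA-treated cultures, against 26.3 and 26.7 in untreated ones (4.09, SE 0.23, adjusted p = 0.00124). Gbp5, which promotes inflammasome assembly, was at 92.3 and 120 FPKM with TSA, against 11.2 and 12.1 without it (3.07, SE 0.17). Gbp10 was at 66.3 and 74.3 FPKM with TSA, against 16.9 and 16.5 without it (2.01, SE 0.13). Iigp1, an immunity-related GTPase, was at 43.1 and 71.2 FPKM with TSA, against 15.9 and 12.1 without it (1.92, SE 0.26). In each of the 4 the treated libraries stood well above the untreated ones. Members of this family are close copies of one another, and how reads shared between them were counted is not given in the sources used here.

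The promoters of these genes are shown because so many of them share an element. The interferon-stimulated response element, bound by factors of the interferon response, has the core GAAANNGAAA, searched on both strands in the 250 bases before the start in RefSeq promoters of GRCm38.p6. Of 13 GTPase genes with a promoter entry, 10 (76.9%) held it, beside 821 of 27025 promoters (3.04%). Of these 10, 8 belonged to genes called higher, 1 to a gene with no call and 1 to a gene not measured. Another 2 GTPase genes called higher had an entry and no match. The core was in 3.71% of promoters of all genes called higher, beside 2.68% of those of tested genes. All 5 Gbp genes with an entry held it, and 70 bases around the match nearest the start are given 5′ to 3′ on the strand of the gene, with the match, here on the opposite strand, in capitals. Gbp2 at chr3:142620574-142620643, Gbp2b at chr3:142594680-142594749, Gbp3 at chr3:142559974-142560043, Gbp5 at chr3:142496739-142496808 and Gbp7 at chr3:142530253-142530322 are all on the plus strand.
Gbp2: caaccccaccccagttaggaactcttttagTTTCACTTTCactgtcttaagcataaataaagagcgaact
Gbp2b: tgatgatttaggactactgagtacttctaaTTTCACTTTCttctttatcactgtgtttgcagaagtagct
Gbp3: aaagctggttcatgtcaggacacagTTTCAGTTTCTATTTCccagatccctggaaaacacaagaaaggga
Gbp5: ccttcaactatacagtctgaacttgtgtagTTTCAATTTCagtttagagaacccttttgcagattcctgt
Gbp7: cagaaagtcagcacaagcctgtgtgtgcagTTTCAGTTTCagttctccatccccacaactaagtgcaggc
The capitals in Gbp3 are 2 overlapping matches. The gamma-activated site TTCNNNGAA, another element of the interferon response, was in 6 of the 13 GTPase promoters (46.2%) and in 7.18% of all promoters. A match describes letters in these windows and is no measure of binding.

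Interferon-stimulated genes outside the GTPases were higher in 17 of 33 tested cases (51.5%) and lower in 2, beside 16.8% and 10.9% of all tested genes, with a median of 0.54 (11 of 26 higher with a filter of 5 FPKM); 3 of the 33 were under 1 FPKM in both untreated libraries. Zbp1, a sensor of nucleic acids that triggers cell death, was at 191 and 261 FPKM with TSA, against 38.0 and 38.6 without it (2.51, SE 0.18). Mx1, a GTPase against influenza virus, was at 15.8 and 21.2 FPKM with TSA, against 1.92 and 1.35 without it (2.88, SE 0.20). Both genes had groups that were apart. The response element core was in 13 of 33 promoters of this list (39.4%). Of the 13, 7 belonged to genes called higher, 1 to a gene called lower and 1 to a gene with no call. The rest of the 13 were in genes not tested or not measured. Among genes with an entry and no match, 4 were called higher, 1 lower and 10 gave no call.

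**Figure D3:**
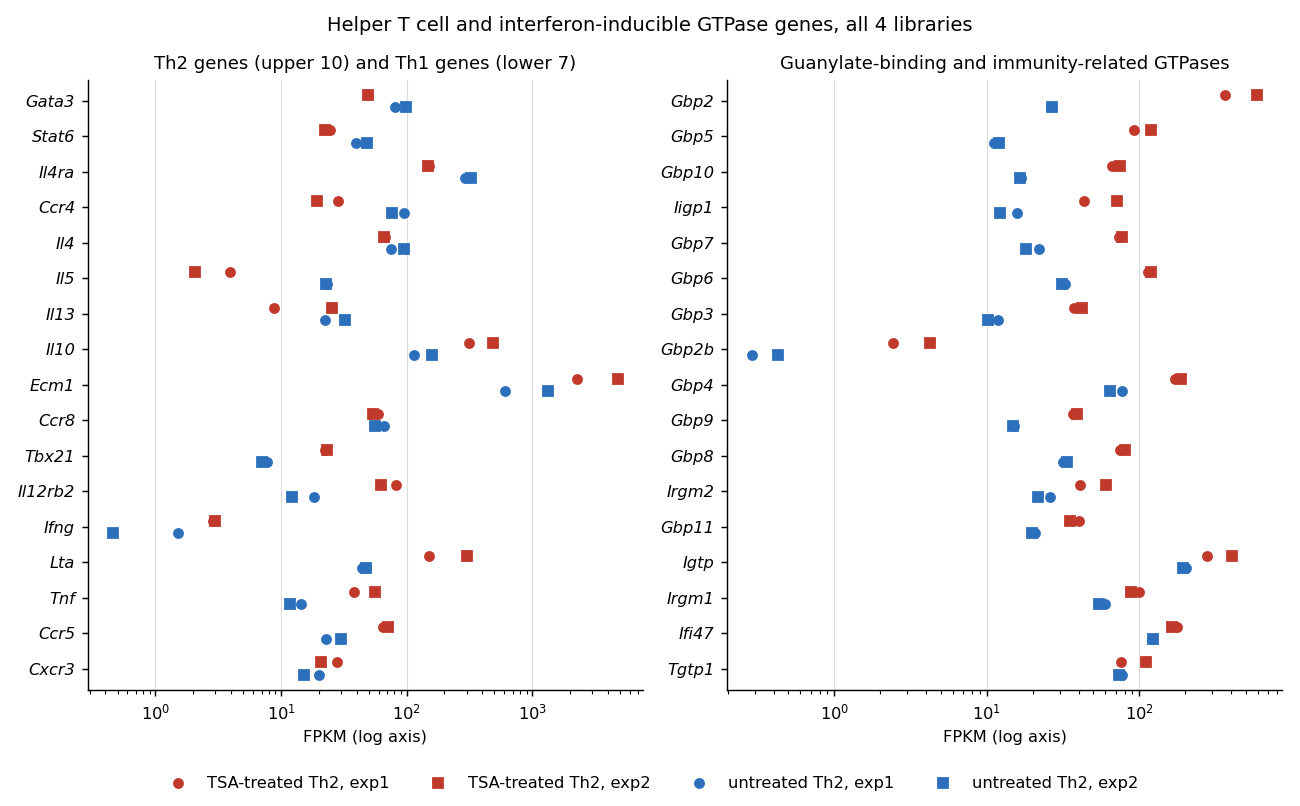
FPKM (log axis) of Th2 and Th1 genes (left) and of guanylate-binding and immunity-related GTPase genes (right), 1 point per library, TSA-treated above untreated in each row. Il5, Ccr4 and Gata3 lie to the left with TSA, while Tbx21, Il12rb2 and the GTPase genes from Gbp2 to Ifi47 lie to the right.

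Of 20 tested cholesterol synthesis genes 14 (70%) were lower and 0 higher, beside 10.9% of all tested genes lower, with a median log2 fold change of -0.65. Of 17 tested fatty acid synthesis genes 11 (64.7%) were lower and 0 higher, with a median of -1.09 (1 higher without untreated replicate 1). Of 18 tested genes of sterol sensing and uptake 9 (50%) were lower and 1 higher (5 lower without TSA-treated replicate 2). Both pathways are run by the SREBP factors, which are held back when sterols are plentiful.

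Insig1, the sterol sensor that retains SREBP and is itself an SREBP target, was at 18.3 and 14.4 FPKM in TSA-treated cultures, against 69.5 and 70.7 in untreated ones (-2.04, SE 0.15, adjusted p = 0.0018). Lss, the lanosterol synthase, was at 16.0 and 13.2 FPKM with TSA, against 53.7 and 55.5 without it (-1.84, SE 0.14). In both genes the untreated libraries were well above the TSA-treated ones. Npc2, which carries cholesterol out of lysosomes, went the other way, with 175 and 264 FPKM in TSA-treated cultures, against 73.7 and 103 in untreated ones (1.29, SE 0.25).

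In the fatty acid branch the desaturase gene Fads2 was at 13.1 and 7.65 FPKM in TSA-treated cultures, against 81.2 and 80.9 in untreated ones (-2.89, SE 0.24, adjusted p = 0.00194). Fasn, the fatty acid synthase, was at 26.5 and 18.5 FPKM with TSA, against 89.7 and 91.5 without it (-1.99, SE 0.19). Scd1, which makes oleate, was at 10.8 and 7.67 FPKM with TSA, against 38.8 and 28.8 without it (-1.77, SE 0.22). In all 3 the TSA-treated exp2 library was the lowest of the 4. For comparison, the CD4 T libraries averaged 1.81 FPKM of Fads2, 23.1 of Fasn and 12.1 of Insig1.

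The promoters of the sterol genes are shown for the box that binds NF-Y, a partner of SREBP. The letters CCAAT, on either strand of the 250 bases before the start, were in 14 of 16 cholesterol synthesis promoters (87.5%), in 9 of 18 fatty acid synthesis promoters (50%) and in 34.5% of all promoters. In the cholesterol list 7 of the 14 belonged to genes called lower and 5 to genes with no call. The 2 cholesterol genes with an entry and no match were also called lower. Among fatty acid genes called lower, 4 held the box and 4 did not. The box was in 33.2% of promoters of all genes called lower, beside 37.4% of those of tested genes. The sterol regulatory element core CACCCCAC was in 2 of the 16 cholesterol synthesis promoters and in 2.51% of all promoters. Of the genes named from the 3 lists 6 had an entry, and the 5 with a CCAAT match are given with each match in the window in capitals: Insig1 at chr5:28071163-28071232 and Lss at chr10:76531510-76531579 on the plus strand, and Cyp51 at chr5:4104698-4104767, Tmem97 at chr11:78550739-78550808 and Fasn at chr11:120824570-120824639 on the minus strand.
Insig1: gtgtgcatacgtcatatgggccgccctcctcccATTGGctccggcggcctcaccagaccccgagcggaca
Lss: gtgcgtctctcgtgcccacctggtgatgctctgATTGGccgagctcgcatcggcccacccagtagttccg
Cyp51: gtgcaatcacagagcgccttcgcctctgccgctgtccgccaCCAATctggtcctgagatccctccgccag
Tmem97: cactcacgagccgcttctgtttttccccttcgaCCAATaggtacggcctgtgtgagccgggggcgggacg
Fasn: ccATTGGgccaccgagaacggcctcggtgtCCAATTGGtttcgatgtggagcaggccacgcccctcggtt
ATTGG is the same box read from the other strand, and the run of 8 capitals in Fasn holds a match on each strand. Fads2 had no match in its window.

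**Figure D4:**
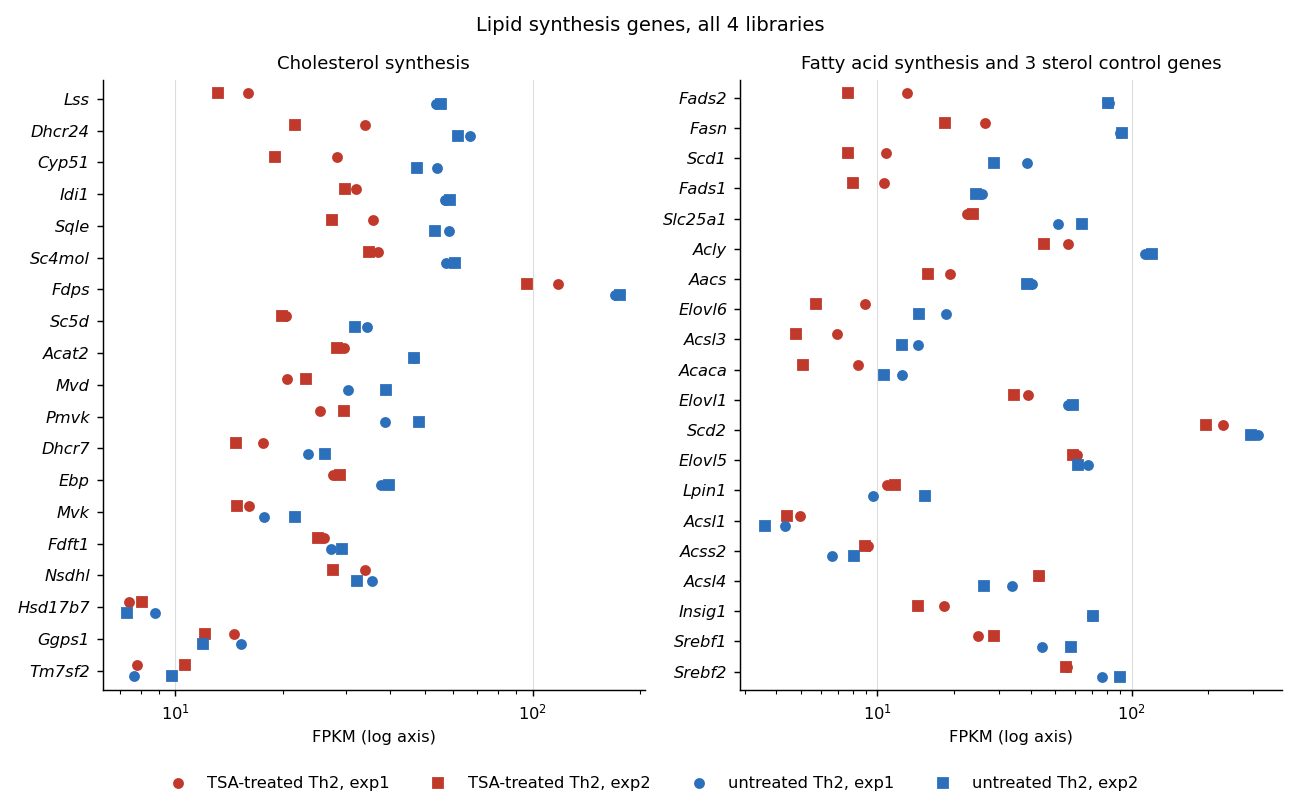
FPKM (log axis) of tested cholesterol synthesis genes (left) and of fatty acid synthesis genes with Insig1, Srebf1 and Srebf2 (right), 1 point per library, TSA-treated above untreated in each row. Lss, Fads2, Fasn and Insig1 are widely separated, while Tm7sf2, Ggps1 and Hsd17b7 at the foot of the left panel overlap.

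ATF4 is the factor of the response to lack of amino acids and to stress. In the list of amino acid transporters and ATF4 targets 14 of 25 tested genes (56.0%) were lower and 1 higher, beside 10.9% and 16.8% of all tested genes, with a median of -0.60. The count of lower genes was 7 without TSA-treated replicate 2 and 8 with no filter. Trib3, a pseudokinase induced by ATF4, was at 5.62 and 3.82 FPKM in TSA-treated cultures, against 19.3 and 23.7 in untreated ones (-1.99, SE 0.20, adjusted p = 0.00276). Asns, asparagine synthetase, was at 17.8 and 13.4 FPKM with TSA, against 44.1 and 41.3 without it (-1.41, SE 0.17). Neither overlapped. The exception was Slc43a1, an amino acid transporter, with 3.67 and 2.44 FPKM with TSA, against 0.76 and 0.43 without it. Slc43a1 passed the filter on low values only through the TSA-treated libraries and had to differ to be tested.

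In glycolysis 6 of 23 tested genes (26.1%) were lower and 2 higher, beside 10.9% and 16.8% of all tested genes (3 lower with no filter, 13 lower without untreated replicate 1, 4 lower and 4 higher without untreated replicate 2). Pfkl, a phosphofructokinase gene, was at 22.3 and 20.9 FPKM in TSA-treated cultures, against 54.5 and 84.6 in untreated ones (-1.61, SE 0.22). Eno2, the neuronal enolase, was higher, at 6.09 and 9.44 FPKM with TSA, against 0.42 and 0.80 without it (2.43, SE 0.23). Eno2 also passed the filter on low values only through the TSA-treated libraries and had to differ to be tested. Several glycolysis genes have many processed pseudogenes, which may share reads with them.

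Of 31 tested cell cycle genes 11 (35.5%) were lower and 1 higher, and of 33 DNA replication and nucleotide synthesis genes 9 (27.3%) were lower and 0 higher, beside 10.9% of all tested genes lower. Without TSA-treated replicate 2 the lower counts were 6 and 2. Cdc20, an activator of the anaphase-promoting complex, was at 37.1 and 25.2 FPKM in TSA-treated cultures, against 70.03 and 64.64 in untreated ones (-1.11, SE 0.20, adjusted p = 0.0125). Aurka, a spindle kinase, was at 33.4 and 23.9 FPKM with TSA, against 63.5 and 58.2 without it (-1.08, SE 0.18). The cyclin gene Ccnd2 was the member that was higher, at 169 and 162 FPKM with TSA, against 70.7 and 64.8 without it (1.28, SE 0.13).

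Of 22 tested genes of CDK inhibitors and p53 targets 12 (54.5%) were higher and 1 lower, beside 16.8% and 10.9% of all tested genes, with a median of 0.86 (0 lower without TSA-treated replicate 2 or after quantile normalization, 2 lower without untreated replicate 1). Cdkn2a, the locus of p16 and p19ARF, was at 28.4 and 40.6 FPKM in TSA-treated cultures, against 5.79 and 4.0 in untreated ones (2.58, SE 0.23, adjusted p = 0.00217). The death receptor gene Fas was at 33.0 and 36.3 FPKM with TSA, against 4.87 and 5.43 without it (2.53, SE 0.14). Neither gene's groups overlapped. Cdkn1a, the p21 gene often used as a readout of deacetylase inhibition and named here after its values were seen, was at 171 and 220 FPKM with TSA, against 111 and 169 without it, with no call (0.50, SE 0.24, adjusted p = 0.159). In the BCL2 family 10 of 19 tested genes (52.6%) were higher and 2 (10.5%) lower (1 lower without any single library other than untreated replicate 1, with no filter or after quantile normalization). Pmaip1, the death gene NOXA, was at 21.5 and 39.0 FPKM with TSA, against 5.90 and 5.61 without it (2.15, SE 0.27). The survival gene Bcl2a1d was at 29.6 and 21.9 FPKM with TSA, against 4.90 and 4.24 without it (2.25, SE 0.18), and its copies Bcl2a1a and Bcl2a1b, which may share its reads, were also called higher.

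Of 21 tested genes of naive and quiescent T cells 10 (47.6%) were higher and 3 (14.3%) lower, beside 16.8% and 10.9% of all tested genes, with a median of 0.69; 2 of the 21 were under 1 FPKM in both untreated libraries. Txnip, a brake on glucose uptake, was at 191 and 326 FPKM with TSA, against 67.5 and 65.1 without it (1.90, SE 0.25). Slfn2, which keeps T cells quiescent, was lower, at 11.5 and 14.6 FPKM with TSA, against 80.0 and 79.2 without it (-2.53, SE 0.15). Igfbp4 was also lower.

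Of 21 tested activation and checkpoint receptor genes 11 (52.4%) were higher and 2 lower (4 lower without untreated replicate 1, 1 lower with no filter), beside 16.8% and 10.9% of all tested genes, with a median of 1.10. Cd200, an inhibitory ligand, was at 12.4 and 12.6 FPKM in TSA-treated cultures, against 1.37 and 0.88 in untreated ones (2.68, SE 0.17). Lag3, an inhibitory receptor for MHC class II, was at 35.3 and 64.6 FPKM with TSA, against 7.48 and 11.6 without it (2.24, SE 0.32). Havcr2, the gene of TIM-3, was at 9.88 and 8.37 FPKM with TSA, against 1.14 and 0.66 without it (2.42, SE 0.18). Members called lower were Tnfrsf9, the co-stimulatory receptor 4-1BB, and Il2ra, a chain of the IL-2 receptor, both named after their values were seen. The FPKM of the whole list summed to 1843 and 2015 with TSA, against 2113 and 2555 without it. By contrast, in the T cell receptor signalling list 1 of 32 tested genes (3.12%) was higher, beside 16.8% of all tested genes. The 3 members called lower (9.38%) were close to the 10.9% of all tested genes.

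In the neuronal list 14 of 44 genes were tested, of which 5 were under 1 FPKM in both untreated libraries; 8 were called higher and 2 lower (1 lower without untreated replicate 2, and 4 higher and 1 lower of 6 tested with a filter of 5 FPKM), while 29 were under 1 FPKM in all 4 libraries. With every library in, 57.1% of tested members were higher and 14.3% lower, beside 16.8% and 10.9% of all tested genes. Syp, the synaptic vesicle protein synaptophysin, was at 9.22 and 16.2 FPKM in TSA-treated cultures, against 0.33 and 0.54 in untreated ones (3.21, SE 0.26). Syt11, a synaptotagmin, was at 13.8 and 14.7 FPKM with TSA, against 2.65 and 2.07 without it (2.19, SE 0.15). No gene of the pluripotency list passed the filter on low values, and its 20 genes summed to 3.63 and 3.87 FPKM with TSA, against 0.68 and 1.09 without it. In the germline list 3 of 26 genes passed.

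Among the markers of B cells, Ms4a1 was called higher in TSA-treated cultures (2.06, SE 0.30, adjusted p = 0.00689), Cd79a and Cd79b gave no call (adjusted p = 0.0655 and 0.0646), and Pax5 was too low to test. The 4 markers Cd79a, Cd79b, Ms4a1 and Pax5 summed to 12.0 and 34.8 FPKM in TSA-treated libraries, against 3.83 and 5.74 in untreated ones, which is 0.39% and 1.1%, against 0.12% and 0.19%, of their sum in the B cell libraries. Pax5 was listed at 0 in both untreated libraries and was at 0.87 and 0.88 FPKM with TSA. Of 18 tested genes of the list of MHC class II and B cell markers 14 were higher and 0 lower (8 of 10 higher with a filter of 5 FPKM), beside 16.8% and 10.9% of all tested genes, 7 of the 18 being under 1 FPKM in both untreated libraries. H2-Aa, an MHC class II chain, was at 17.6 and 55.4 FPKM with TSA, against 1.64 and 3.76 without it (3.19, SE 0.53), and its partner H2-Ab1, named after its values were seen, was at 39.6 and 75.6 FPKM with TSA, against 35.1 and 80.5 without it. The natural killer receptor gene Klrk1 was at 15.6 and 10.1 FPKM with TSA, against 0.22 and 0.15 without it (3.52, SE 0.22), while Cd8a was under 1 FPKM in every library. The 4 CD8 and natural killer markers together summed to 9.90 and 14.7 FPKM with TSA, against 7.48 and 7.79 without it. Nearly all of that sum was Cd8b1, at 9.55 and 13.8 FPKM with TSA, against 7.09 and 7.18 without it. Cd8b1 gave no call (limma adjusted p = 0.0594). Emr1, the macrophage antigen F4/80, was at 0.51 and 0.39 FPKM with TSA, against 6.42 and 5.66 without it. The 4 tested genes of its myeloid list went both ways, with 1 higher (25%) and 2 lower (50%). Of these 4, 1 was under 1 FPKM in both untreated libraries and 1 in both TSA-treated ones, so these had to differ. The mast cell gene Cpa3 was at 0.05 and 0.09 FPKM with TSA, against 2.27 and 2.42 without it. The myeloid genes Csf1r, Lyz2 and C1qa summed to at most 0.24 FPKM in any library. The part of B cell or other cells in the results of the other lists was not tested.

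Of the 11 Hdac genes in the files 10 were tested, and 2 were called higher and 2 lower, beside 16.8% higher and 10.9% lower among all tested genes. Hdac7, a class IIa deacetylase of lymphocytes, was at 31.6 and 32.1 FPKM in TSA-treated cultures, against 56.7 and 74.8 in untreated ones (-1.01, SE 0.17, adjusted p = 0.0095). Hdac1 was at 108 and 113 FPKM with TSA, against 79.7 and 76.4 without it (0.50, SE 0.12, adjusted p = 0.0321), a call lost without any 1 of the 4 libraries (adjusted p = 0.0601, 0.12, 0.112 and 0.163). Hdac10 was called lower (-0.48) and lost its call in the same way, and Hdac11 was called higher at 1.08 and 2.18 FPKM with TSA, against 0.44 and 0.46 without it, a call lost after quantile normalization (0.26, adjusted p = 0.441) and with no filter (adjusted p = 0.0718). Hdac2 was at 50.9 and 42.9 FPKM with TSA, against 57.6 and 46.0 without it, and Hdac3 at 42.0 and 33.9, against 42.6 and 40.2; both overlapped. Hdac8 was just outside the threshold (0.48, limma adjusted p = 0.0538), Hdac4, Hdac5 and Hdac6 gave no call, and Hdac9 was too low to test. Hdac11 passed the filter on low values only through the TSA-treated libraries and had to differ to be tested.

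Among acetyltransferases and bromodomain readers 6 of 18 tested genes (33.3%) were lower and 1 higher, beside 10.9% of all tested genes lower (1 lower without TSA-treated replicate 2). Ep300, the p300 acetyltransferase, was the one higher, at 31.7 and 29.8 FPKM in TSA-treated cultures, against 18.5 and 18.1 in untreated ones (0.72, SE 0.13, adjusted p = 0.0121). Of 31 tested Polycomb genes 3 were higher and 2 lower, shares of 9.68% and 6.45%, both below those of all tested genes (1 or 2 higher and 1 or 2 lower without any single library, 2 higher and 1 lower with no filter). Rybp, a subunit of variant PRC1, was at 22.9 and 23.7 FPKM with TSA, against 6.70 and 6.07 without it (1.72, SE 0.14, adjusted p = 0.00183). Phf19, which guides PRC2 to chromatin, was at 2.65 and 2.18 FPKM with TSA, against 11.7 and 11.4 without it (-1.88, SE 0.15). These were the 2 largest changes in that list and both were tight within groups, while Ezh2, named after its values were seen, gave no call (0.28, adjusted p = 0.263). Of 16 tested Trithorax genes 1 (6.25%) was higher and 3 (18.8%) lower, and none was called without TSA-treated replicate 2 (adjusted p = 0.0665 for both Ash2l and Hcfc1); Kmt2a gave no call (0.55, adjusted p = 0.107).

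**Figure D5:**
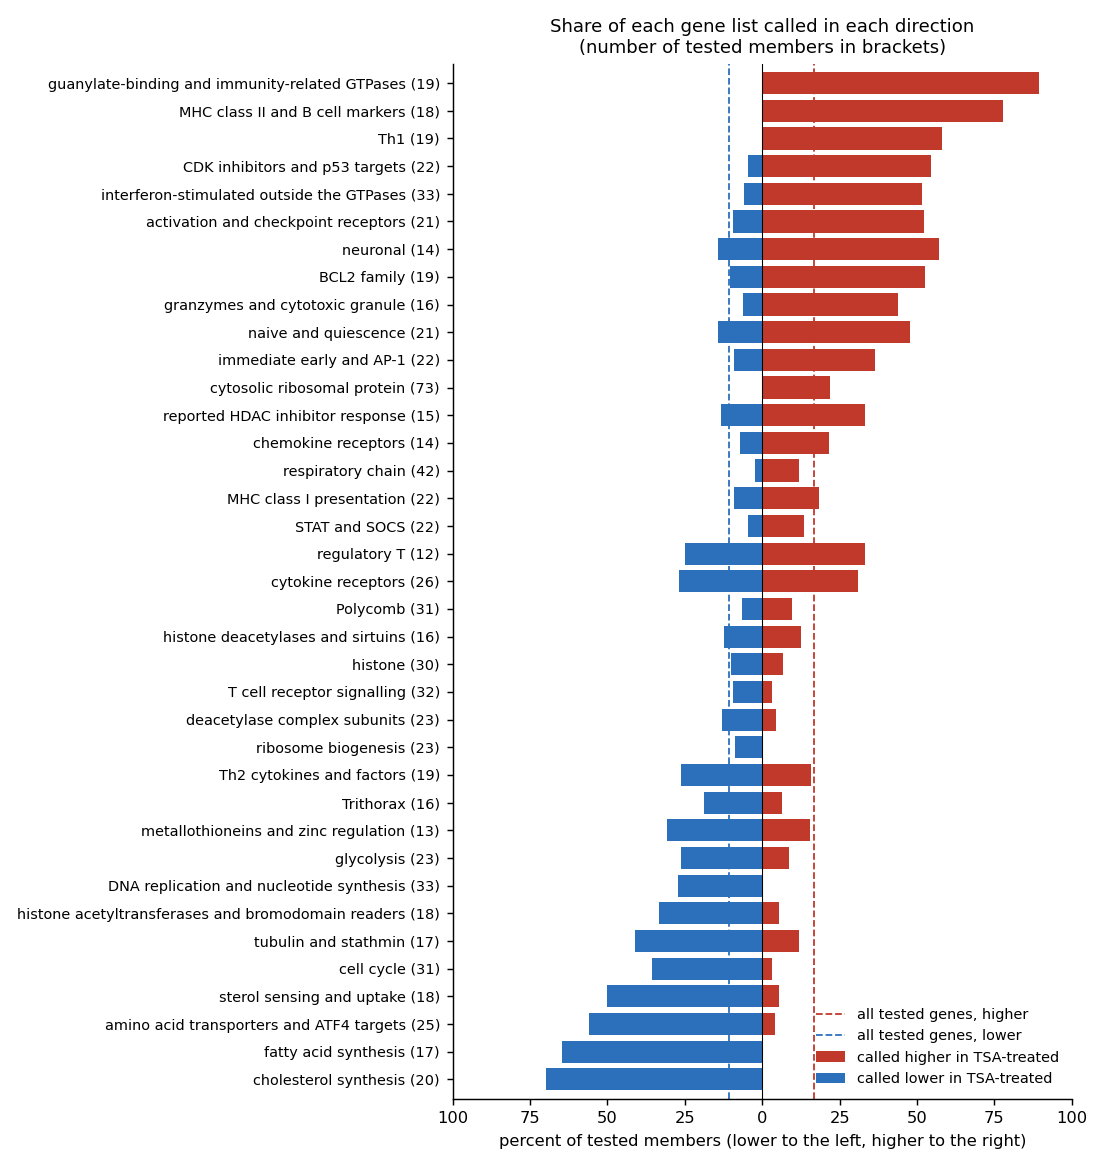
Percent of tested members called lower (left) and higher (right) in TSA-treated cultures for each gene list with at least 10 tested members; dashed lines mark 10.9% lower and 16.8% higher among all tested genes. The GTPase list reaches 89.5% higher and the cholesterol synthesis list 70% lower; members under 1 FPKM in both untreated libraries, 7 of 18 in the list of MHC class II and B cell markers, had to differ to be tested.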

How the data were processed

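RNA-seq of total RNA (TruSeq v2 libraries, per the labels' protocols) was used as FPKM values deposited by the authors, 1 per transcript row; the mm10 build and the tools Cufflinks 2.0.2, TopHat 1.3.2 and Bowtie 0.12.8 come from the submitters' processing notes. Settings, strandedness and the handling of multiply matching reads were not given in the sources used here. Each of the 4 files held 21035 rows; the value of a gene was its highest row, and the rows above 0 of the 1449 symbols with several rows held 1 value in each Th2 file. Group and replicate came from the titles.

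FPKM holds no counts. The value of 1 fragment was estimated from the spacing of values under 0.25 FPKM in 231 to 317 genes per library, with transcripts of 700 to 1500 bases less 200; the values were not recovered as whole reads, and no count test was run.

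limma 3.58.1 (R 4.3.3) was fitted to log2(FPKM + 1) in the 4 libraries, with a trend in the prior spread, 2 residual and 4.092 prior degrees of freedom, after a filter of 1 FPKM in at least 2 libraries. It was tested on simulated data. The members and the 46 gene lists were chosen with earlier results of these data known, and lists are described by counts and medians. Named genes are the 15 largest calls in each direction with a mean of at least 5 FPKM in the higher group and no overlap. Small RNAs, numbered models, Riken clones, pseudogenes, unnamed accessions and antigen receptor segments were left out of these. Up to 4 tested members of each list with the largest change, called or not, the cell type markers and the Hdac genes are also named. Promoters and gene positions are RefSeq's on GRCm38.p6; the first entry per symbol was used, and 5 motifs were searched. Alternatives were pseudocount, filter, scaling, row summary, spread, block and leaving out each library. Results for some genes that the rule names are not reported here.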

Additional observations from a re-analysis of the deposited data

How the results depend on the processing

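The counts of genes higher (1718) and lower (1110) in TSA-treated cultures stayed within 1.5-fold under several settings. These were another pseudocount, no filter, 3 scalings, sums or means of rows and no trend. Sums and means could change little, since the rows above 0 of a symbol held the same value in each Th2 file. A fit with the ES, B and CD4 T groups added took each as a single mean. That adds no spread, so its similar counts say nothing about the spread. With a filter of 5 FPKM, which tests 8037 genes, 1026 were higher. Leaving out 1 library gave 1206 to 1691 higher and 598 to 1087 lower genes. The lowest were both without TSA-treated replicate 2, and the lone library is then assumed to vary like the other group. In the fits without an untreated library, genes were judged almost only by a spread shared over genes and not by their own. Counts and calls from fits that leave out a library are therefore descriptions and no test of a call. With the replicate number as a block, 3023 genes were higher and 2812 lower; same-numbered libraries deviated together (correlation 0.61 over tested genes, 2 pairs), but the labels do not say what the number marks. No call turned round under any of these settings. Of 171 named genes with a call, 0 changed direction and 133 kept their call in all settings that tested them. With 2 libraries a group, depth of about 15000000 to 27000000 fragments and no read counts, small changes and genes under 1 FPKM cannot be judged.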

Other observations

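Ribosomal protein genes took 20.0% and 20.0% of the summed FPKM in TSA-treated cultures, against 15.3% and 16.4% in untreated ones. The median log2 fold change of 73 tested members was 0.42. Of them 16 (21.9%) were higher and 0 lower, beside 16.8% and 10.9% of all tested genes. The count was 9 after quantile normalization, 5 with no filter, and 5, 1 and 2 without TSA-treated replicate 1, TSA-treated replicate 2 and untreated replicate 1. Many of these genes have processed pseudogenes that can share reads.

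Of 17 tested tubulin and stathmin genes 7 were lower and 2 higher, and 2 to 4 were lower without any single library. With every library in, 41.2% of tested members were lower and 11.8% higher, beside 10.9% and 16.8% of all tested genes. Tubb2b, a beta tubulin of neurons, was at 15.92 and 24 FPKM in TSA-treated cultures, against 1.18 and 1.84 in untreated ones (3.05, SE 0.24). Tubb2a was at 15.4 and 23.6 FPKM with TSA, against 3.67 and 3.69 without it. Among metallothioneins, Mt3 was called higher while Mt1 and Mt2 differed widely between untreated libraries: Mt2 was at 307 and 612 FPKM with TSA, against 50.1 and 189 without it, and Mt1 at 341 and 639, against 160 and 490.

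In the list of reported responses to deacetylase inhibitors, 5 of 15 tested genes were higher and 2 lower (9 higher without untreated replicate 2, 1 lower without TSA-treated replicate 2 or untreated replicate 1). With every library in, 33.3% of tested members were higher and 13.3% lower, beside 16.8% and 10.9% of all tested genes. Gsn, gelsolin, was at 118 and 135 FPKM with TSA, against 38.5 and 51.8 without it (1.48, SE 0.18). H1f0, a linker histone gene that such inhibitors raise in other cells, was lower here, at 62.4 and 54.4 FPKM with TSA, against 119 and 107 without it (-0.94, SE 0.14, limma adjusted p = 0.00698). H1fx, another linker histone gene, was at 4.60 and 6.03 FPKM with TSA, against 0.53 and 0.63 without it. H1fx passed the filter on low values only through the TSA-treated libraries.

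Of all tested genes 16.8% were higher and 10.9% lower. In the respiratory chain 5 of 42 tested genes were higher and 1 lower, and in ribosome biogenesis 0 of 23 were higher and 2 lower. Among histone genes 2 of 30 were higher and 3 lower. Both histone genes called higher were under 1 FPKM in both untreated libraries and had to differ to be tested. With a filter of 5 FPKM 0 of 14 histone genes were higher. Leaving out 1 library gave 3 to 7 higher genes in the respiratory chain, 0 to 11 lower genes in ribosome biogenesis and up to 8 higher histone genes. MHC class I presentation had 4 of 22 higher and 2 lower (2 higher without TSA-treated replicate 2), while Psmb10, an immunoproteasome subunit, was lower at 31.4 and 30.4 FPKM with TSA, against 64.7 and 80.1 without it (-1.19, SE 0.15).

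Of 16 tested genes of the cytotoxic granule 7 were higher and 1 lower (2 lower without untreated replicate 1 or after quantile normalization). With every library in, 43.8% of tested members were higher and 6.25% lower, beside 16.8% and 10.9% of all tested genes. Of the 16, 2 were under 1 FPKM in both untreated libraries and had to differ to be tested. Nkg7, a granule membrane protein gene, was at 24.6 and 23.2 FPKM with TSA, against 9.30 and 7.43 without it (1.42, SE 0.15). Unc13d, which primes granules for release, was the member called lower, at 14.9 and 14.0 FPKM with TSA, against 35.1 and 37.5 without it (-1.27, SE 0.13).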
